A study of Mus musculus with 6 samples.

Results

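The miRNAs encoded inside the Hox gene clusters are miR-10a, miR-10b, miR-196a, miR-196b and miR-615. They were described here in extracellular vesicles that mouse osteoblasts, the bone-forming cells, released during apoptosis. Every entry with one of these names was taken, whatever its arm or copy suffix, which gave 9 of the 1712 entries of the deposited table (1528 of them annotated miRNAs). The study compared vesicles from Prx1cre;SIRT6f/f mice, called knockout here (n = 3 libraries), with vesicles from SIRT6f/f mice without Cre, called control (n = 3). Sirt6 encodes an NAD-dependent deacetylase, and Prx1-driven Cre acts in the limb mesenchyme lineage, so the deletion is not specific to osteoblasts and both groups carry the floxed alleles. Osteoblasts of both groups were grown to near confluence and kept in serum-free medium during apoptosis, and vesicles were pelleted by ultracentrifugation. Neither the age of the mice nor whether replicates were separate animals or cultures is given in the labels, so p-values cover the spread between these libraries, which may be technical. Small RNA data hold no measure of Sirt6 mRNA, so the deletion itself was not checked here.

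Hox genes encode transcription factors that set position along the body axis and the limb, and their miRNA genes lie between or within them in each cluster. A miRNA is cut from a hairpin precursor, 1 arm of which usually accumulates, and it pairs with target mRNAs mainly through its seed, the bases from position 2 to 8. miR-196 is known for targeting Hox mRNAs such as Hoxb8, miR-10 family members target Hox mRNAs as well as others, and miR-615 lies in an intron of Hoxc5.

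The major arms show how the entries group. They are given 5′ to 3′ from RefSeq (GRCm38.p6) with the seed in capitals, together with miR-99a, miR-99b and miR-100, which are sequence relatives of miR-10 encoded outside the Hox clusters.
miR-10a-5p: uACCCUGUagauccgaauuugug
miR-10b-5p: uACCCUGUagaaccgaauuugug
miR-99a-5p: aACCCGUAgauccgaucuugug
miR-99b-5p: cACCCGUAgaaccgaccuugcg
miR-100-5p: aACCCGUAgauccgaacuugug
miR-196a-5p: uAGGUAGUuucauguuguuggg
miR-196b-5p: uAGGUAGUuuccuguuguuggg
miR-615-3p: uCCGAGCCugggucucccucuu
With positions counted from 1 at the 5′ end, miR-10a-5p and miR-10b-5p share their seed and differ by 1 base, U12A. miR-196a-5p and miR-196b-5p likewise share their seed and differ by A12C. Because a single base separates each pair, and no source used here states how many mismatches the authors' read assignment allowed, reads could be split between the copies. The miR-99 and miR-100 arms carry a different seed and lie 3 to 6 edits from miR-10a-5p. miR-615-3p shares its seed with no other mature mouse miRNA of the RefSeq table.

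The hairpins lie in all 4 Hox clusters (GRCm38, RefSeq positions, with genes from GENCODE M21). Mir10a (chr11:96317165-96317274, plus strand) overlaps no annotated host gene and lies 993 bp from Hoxb4. Mir10b (chr2:74726070-74726137, plus strand) lies within introns of Hoxd3 and Hoxd4. miR-196a-5p is made from 2 hairpins, Mir196a-1 (chr11:96265164-96265265, plus strand), intergenic and 6192 bp from Hoxb9, and Mir196a-2 (chr15:102973350-102973434, plus strand), between Hoxc10 and Hoxc9 within an intron of a long Hoxc5 transcript. Mir196b (chr6:52230081-52230165, minus strand) overlaps an exon of Hoxa9, and the arms of miR-615 (chr15:103014926-103014990, plus strand) lie within an intron of Hoxc5.

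The files give RPM, reads scaled so that all listed entries of a library sum to 1000000, so an entry's RPM depends on how much the other entries take. From the steps in the values, 1352045 to 1838239 reads per library were inferred, and 3 reads correspond to 1.63 to 2.22 RPM. Annotated miRNAs took a smaller share of reads in the knockout libraries (37.2% to 47.2%) than in the control libraries (49.99% to 56.9%), with entries that carry no miRNA name taking the rest. Knockout replicate 3 stood apart with the lowest share, so values are also given without it. Mesenchymal miRNAs, 8 of 8 detected, summed to 65607 to 115180 RPM in knockout and 144556 to 161951 RPM in control libraries. Among markers of other cell types, summed RPM in knockout and control libraries was 263 to 491 and 633 to 895 for blood (7 of 7 detected), 23.4 to 52.2 and 85.1 to 105 for endothelium (2 of 2), 184 to 342 and 354 to 385 for liver (3 of 3), and 4.35 to 23.7 and 18.4 to 35.5 for the neural list (2 of 3, miR-124 at 0). It was 20.7 to 34.8 and 25.1 to 28.8 for epithelium (7 of 7) and 116 to 149 and 118 to 149 for muscle (3 of 4, miR-133b at 0). The summed mesenchymal, blood, endothelial and liver markers were lower in every knockout library than in every control library. Single members of a list need not follow its sum. In the same RPM, 78.8% of the 274 annotated entries averaging 10 RPM or more had a log2 fold change below 0. The part of these markers in the results below was not tested.

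The vesicles carried 1 abundant Hox-locus miRNA and 4 scarcer ones. miR-10a-5p, from the HoxB cluster, held rank 20 to 27 among annotated entries in the 6 libraries. It made up 87.6% to 90.2% of the summed RPM of the 9 entries in the knockout libraries and 85.5% to 86.1% in the control libraries. miR-196a-5p came next (rank 82 to 86), followed by miR-10b-5p (rank 88 to 106), and in each of the 6 libraries miR-196a-5p was above miR-10b-5p. miR-196b-5p (rank 167 to 197) and miR-615-3p (rank 168 to 231) were the lowest of the major arms, and their order reversed in control replicate 1. All of these arms are 22 or 23 bases long, so RPM needs no length correction between them.

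**Figure D1:**
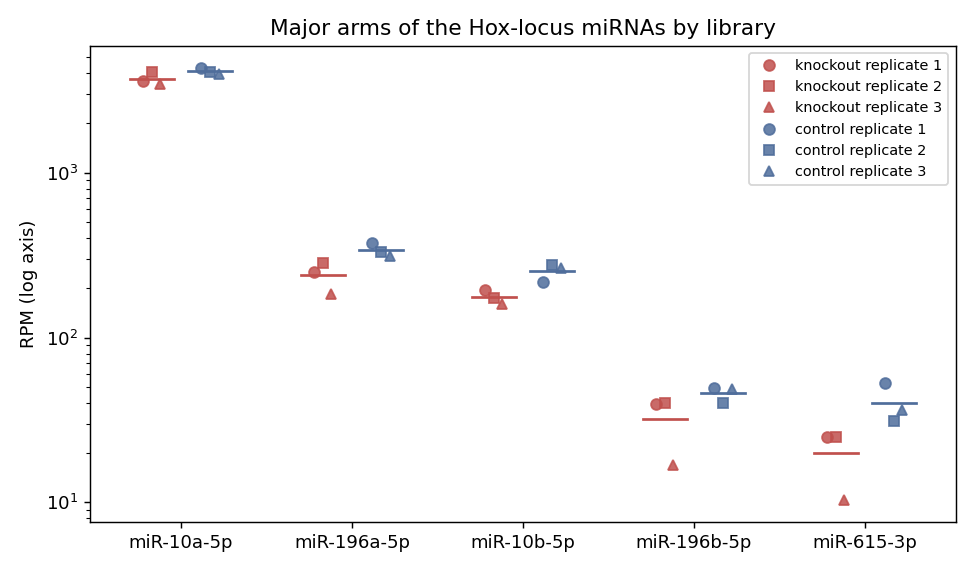
RPM (log axis) of the 5 major Hox-locus arms in each knockout (red) and control (blue) library, with symbols for the replicate number and a line at each group mean. miR-10a-5p lies between 3455 and 4343 RPM in all 6 libraries, and knockout replicate 3 is the lowest library for all 5 arms.

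Of the 9 entries, 7 passed the filter for testing (at least 1 RPM in at least 3 libraries), and 0 of these 7 passed limma at an adjusted p under 0.05. Only miR-615-3p had an unadjusted p under 0.05 (1 of 7). Over all 1114 tested entries, the unadjusted limma p was under 0.05 for 163 that were lower and 60 that were higher in the knockout libraries. A single such entry among the 7 is therefore not unusual. At an adjusted p under 0.05, limma called 2.15% of the 1114 higher and 2.69% lower. All 5 major arms had negative values, with a median log2 fold change of -0.53, beside -0.59 for the 274 annotated entries averaging 10 RPM or more and -0.27 for all tested entries. For 3 of the 5 major arms the groups did not overlap, with the knockout libraries lower, and the same held for 52.2% of those 274 annotated entries. None of the 5 was free of overlap in the other direction, against 9.12% of the 274. The share among the Hox-locus arms is thus close to that of other annotated miRNAs of such levels.

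In the miR-10 family, mmu-miR-10a-5p (the mouse prefix mmu- is otherwise left out) had 3608, 4054 and 3455 RPM in the knockout libraries and 4343, 4058 and 3980 RPM in the control libraries. The groups overlapped, since knockout replicate 2 was above control replicate 3. The means were 3706 ± 311 RPM in knockout and 4127 ± 191 RPM in control (SD, n = 3 each), a log2 fold change of -0.16 (95% interval -0.75 to 0.43, limma adjusted p = 0.799). Between 5486 and 7176 reads per library stood behind these values. Without knockout replicate 3 the log2 fold change was -0.11.

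mmu-miR-10b-5p, which comes from the HoxD cluster and shares the miR-10a seed, had 193.997, 173 and 160 RPM in the knockout libraries and 218, 277 and 264 RPM in the control libraries. All 3 knockout libraries lay below all 3 control libraries. The means were 176 ± 16.9 RPM in knockout and 253 ± 30.6 RPM in control (SD, n = 3 each), with a log2 fold change of -0.52 ± 0.30 (SE, limma adjusted p = 0.337). Without knockout replicate 3 it was -0.46.

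In the miR-196 family, mmu-miR-196a-5p had 249, 284 and 183 RPM in the knockout libraries and 376, 330 and 313 RPM in the control libraries. The groups did not overlap, and the lowest library was knockout replicate 3. The means were 239 ± 50.9 RPM in knockout and 339.9 ± 32.7 RPM in control (SD, n = 3 each). The log2 fold change was -0.53 ± 0.30 (SE, limma adjusted p = 0.306), and -0.35 without knockout replicate 3.

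mmu-miR-196b-5p, from the HoxA cluster, had 39.8, 40.1 and 16.9 RPM in the knockout libraries and 49.7, 39.9 and 48.5 RPM in the control libraries. Knockout replicates 1 and 2 lay at the level of control replicate 2, and knockout replicate 3 stood alone below the rest with 31 reads. The log2 fold change of -0.59 (95% interval -1.34 to 0.16, limma adjusted p = 0.405) was reduced to -0.20 without that library.

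mmu-miR-615-3p, the HoxC intronic miRNA, had the largest fold change of the 5 major arms. It had 24.9, 24.9 and 10.3 RPM in the knockout libraries and 53.4, 31.1 and 36.2 RPM in the control libraries. All knockout libraries were below all control libraries, on 19 to 44 reads per knockout library and 42 to 74 per control library. The means of 20.02 ± 8.39 RPM in knockout and 40.2 ± 11.7 RPM in control (SD, n = 3 each) gave a log2 fold change of -1.03 ± 0.41 (SE, limma adjusted p = 0.112). The adjusted p was 0.0452 when only entries averaging 10 RPM or more were tested, a setting in which limma called 20% of 355 entries lower (71). It was 0.096 to 0.436 in the other settings with RPM as deposited and all libraries. Without knockout replicate 3 the log2 fold change was -0.64 (limma adjusted p = 0.256). Among the 274 annotated entries, 13.2% had a lower fold change than miR-615-3p, and 74.7% had a lower one than miR-10a-5p.

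**Figure D2:**
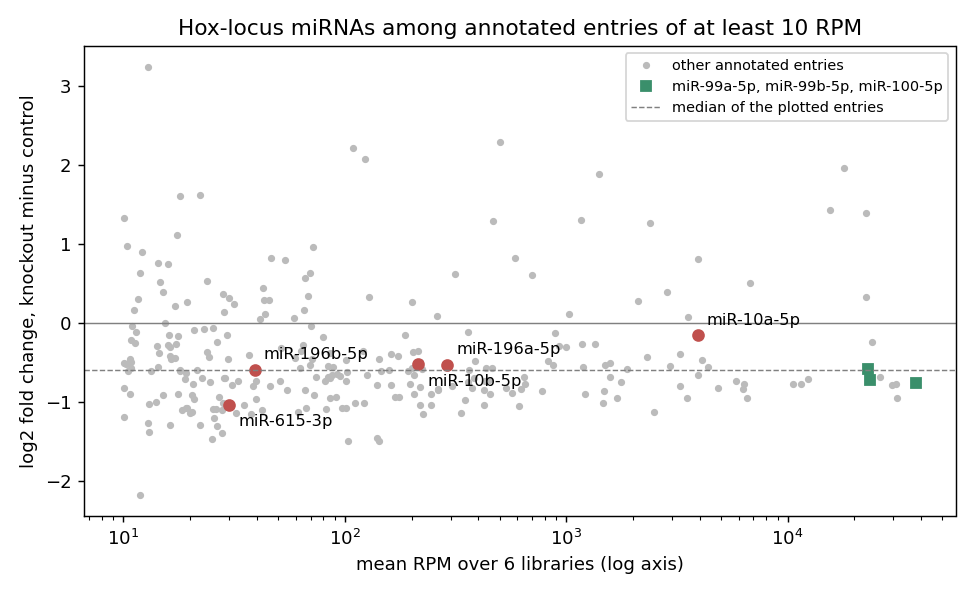
Log2 fold change (knockout minus control, y axis) against mean RPM over the 6 libraries (log x axis) for annotated entries averaging 10 RPM or more. The 5 Hox-locus arms are red, the miR-99 and miR-100 5p arms are green squares, and the dashed line is the median of -0.59. miR-10b-5p, miR-196a-5p and miR-196b-5p lie near that line, with miR-10a-5p above it and miR-615-3p below it.

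Ratios of 2 entries within a library do not depend on the library total. The log2 differences given here had 1 RPM added to each entry first, so they depend slightly on that total where an entry is low. The ratio of miR-10a-5p to miR-10b-5p was 18.6, 23.4 and 21.5 in the knockout libraries and 19.9, 14.7 and 15.1 in the control libraries. The groups overlapped through knockout replicate 1 and control replicate 1. On the log2 scale, miR-10b-5p relative to miR-10a-5p differed by -0.36 between knockout and control (exact 2-sided permutation p = 0.2, adjusted p = 0.4 over 2 ratios, where 0.1 is the smallest p that 3 against 3 libraries allow), and by -0.35 without knockout replicate 3. The ratio of miR-196a-5p to miR-196b-5p was 6.25, 7.07 and 10.9 in the knockout libraries and 7.57, 8.26 and 6.46 in the control libraries. Knockout replicate 3 had the highest ratio and the other libraries were mixed, with a log2 difference of miR-196b-5p relative to miR-196a-5p of -0.07 (exact permutation p = 0.9), which became 0.16 without that library.

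**Figure D3:**
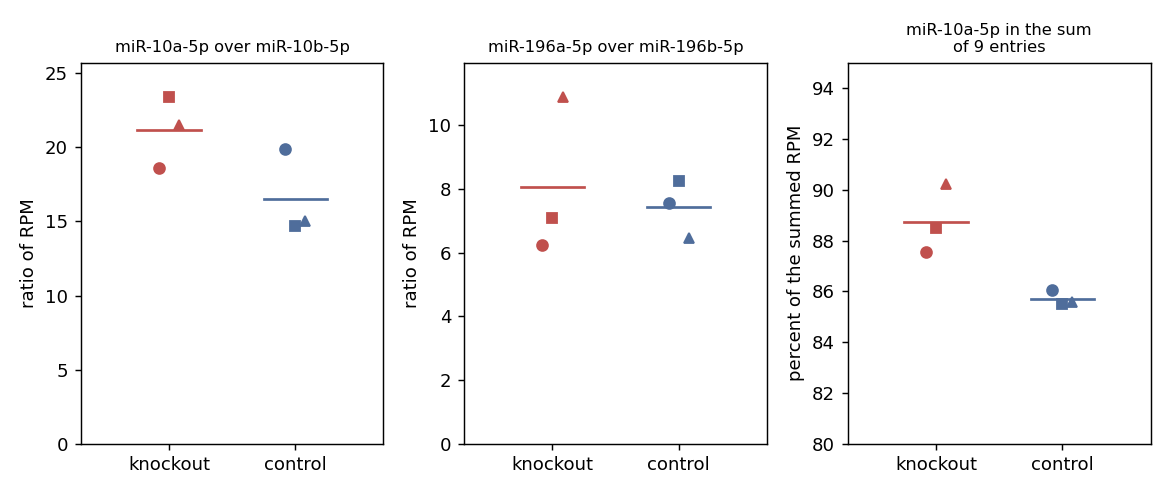
Ratio of miR-10a-5p to miR-10b-5p, ratio of miR-196a-5p to miR-196b-5p, and percentage of the summed RPM of the 9 Hox-locus entries taken by miR-10a-5p, for each knockout (red, left) and control (blue, right) library with lines at the group means. The 2 ratios overlap between groups. The miR-10a-5p percentage, which was not tested, is 87.6% to 90.2% in knockout and 85.5% to 86.1% in control libraries (this axis starts at 80%).

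The direction of miR-10a-5p changed with the total that reads were scaled to. When each library was scaled to its annotated miRNAs, the log2 fold change of miR-10a-5p was 0.12 (limma adjusted p = 0.778). It was 0.31 (limma adjusted p = 0.479) when 5 annotated entries regarded as possible fragments of other RNAs (miR-6236, miR-6238, miR-6239, miR-6240 and miR-3968) were left out of that total. These 5 were chosen with earlier results of these data known. They took 6.43% to 7.62% of reads in the knockout libraries and 1.96% to 3.83% in the control libraries. Leaving them out of the total therefore raises every other entry more in the knockout libraries by construction. Against that smaller total, miR-10a-5p took 0.947%, 0.994% and 1.15% of reads in the knockout libraries and 0.819%, 0.845% and 0.826% in the control libraries. Without knockout replicate 3 the log2 fold change on that scale was 0.23, a check added after seeing the data. The groups did not overlap, with the knockout libraries higher, as for 18.2% of the 274 annotated entries. No other major arm was free of overlap on that scale, so that 0 of 5 were lower in this sense, against 24.8% of the 274 entries, and miR-10b-5p, miR-196a-5p and miR-196b-5p had log2 fold changes of -0.06, -0.07 and -0.14. miR-615-3p kept the most negative value, -0.59 (limma adjusted p = 0.411). Scaled to all annotated miRNAs, the knockout libraries stayed below the control libraries without overlap for 2 of the 5 arms, miR-196a-5p and miR-615-3p, and for 40.1% of the 274 entries.

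**Figure D4:**
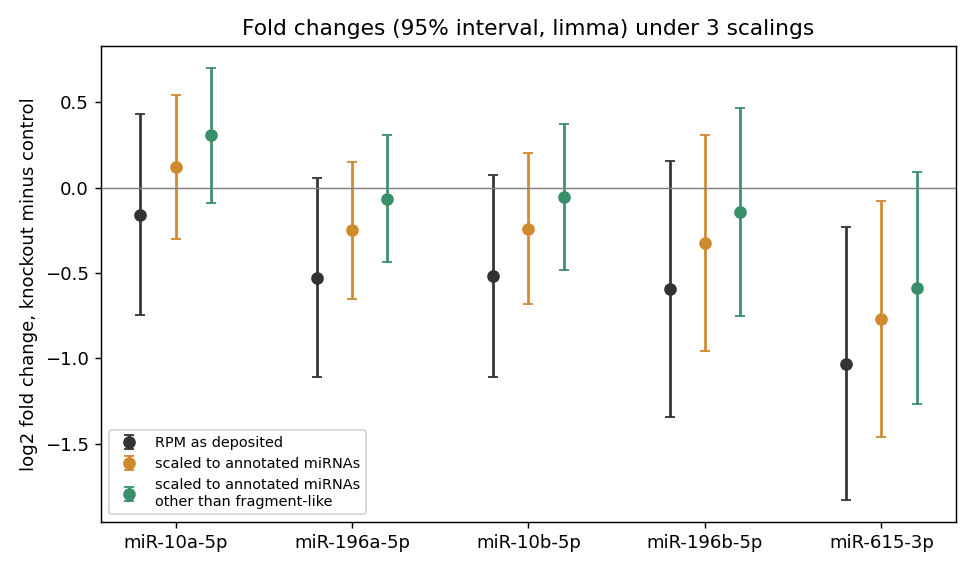
Log2 fold change (knockout minus control) of the 5 major Hox-locus arms with limma 95% intervals, for RPM as deposited (black), scaled to annotated miRNAs (orange) and scaled to annotated miRNAs other than 5 fragment-like entries (green). miR-10a-5p changes sign between the scalings, from -0.16 to 0.12 and 0.31, and the other arms move towards 0.

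Summed over the 9 entries, Hox-locus miRNAs had 4121, 4581 and 3830 RPM in the knockout libraries and 5046, 4746 and 4651 RPM in the control libraries, a ratio of 0.868 (0.904 without knockout replicate 3). As a share of annotated miRNAs the sum was 0.902% to 1.03% in knockout and 0.887% to 0.949% in control libraries, and these ranges overlapped. As a share of annotated miRNAs other than the 5 fragment-like entries, it was 1.08%, 1.12% and 1.27% in the knockout libraries and 0.952%, 0.988% and 0.965% in the control libraries. On that scale the knockout libraries were higher without overlap, opposite in direction to the RPM sum, in which they were lower without overlap. Of the 274 annotated entries averaging 10 RPM or more, 18.2% were higher without overlap on that scale and 52.2% were lower without overlap in RPM. The ratio of the sum on that scale was 1.20, and 1.14 without knockout replicate 3. These sums were not tested. Most of the sum is miR-10a-5p, and the other major arms had negative log2 fold changes on that scale. Without miR-10a-5p, the other 8 entries summed to 513, 528 and 375 RPM in the knockout libraries and 703, 689 and 670 RPM in the control libraries.

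The 5p arms of the relatives outside the Hox clusters were far more abundant. miR-99a-5p averaged 28655 ± 8005 RPM in knockout and 47235 ± 4464 RPM in control libraries (SD, n = 3 each), with a log2 fold change of -0.76 (limma adjusted p = 0.212). miR-100-5p had -0.72 and miR-99b-5p -0.58, and neither passed. Without knockout replicate 3 these log2 fold changes were -0.51, -0.44 and -0.34 for miR-99a-5p, miR-100-5p and miR-99b-5p, and with scaling to annotated miRNAs other than fragment-like ones they were -0.295, -0.26 and -0.12. The 3 arms together were 19.0, 18.8 and 12.3 times the sum of miR-10a-5p and miR-10b-5p in the knockout libraries and 25.5, 23.2 and 22.1 times in the control libraries. Every knockout library lay below every control library in this ratio, which was looked at after the values were seen and was not tested. The 3p arms were scarce. miR-99b-3p had 32.3, 22.6 and 8.16 RPM in the knockout libraries and 62.7, 34.0 and 33.8 RPM in the control libraries. All knockout libraries were lower, as for 52.2% of the 274 annotated entries averaging 10 RPM or more. The log2 fold change was -1.14 (limma adjusted p = 0.0706), and -0.61 without knockout replicate 3. The limma adjusted p was 0.034 when only entries averaging 10 RPM or more were tested, where 20% of 355 entries were called lower. With scaling to annotated miRNAs other than fragment-like ones, the log2 fold change of miR-99b-3p was -0.70 (limma adjusted p = 0.411). miR-99a-3p averaged 6.10 ± 3.90 RPM in knockout and 4.63 ± 4.14 RPM in control libraries (SD, n = 3 each), with overlapping groups (limma adjusted p = 0.647).

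The minor arms were close to the detection limit. The Mir10a and both Mir196a hairpins are shown with their mature arms in capitals, the 5p arm first, because they hold the minor arms that the table lists or lacks.
Mir10a: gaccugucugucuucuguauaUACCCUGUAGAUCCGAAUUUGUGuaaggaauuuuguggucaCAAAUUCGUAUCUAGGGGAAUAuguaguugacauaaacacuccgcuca
Mir196a-1: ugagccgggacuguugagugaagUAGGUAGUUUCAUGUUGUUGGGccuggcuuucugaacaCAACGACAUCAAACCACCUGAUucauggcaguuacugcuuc
Mir196a-2: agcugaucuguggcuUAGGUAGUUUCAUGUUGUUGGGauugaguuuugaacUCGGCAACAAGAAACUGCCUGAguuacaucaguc
The 5p arm is the same in both Mir196a hairpins, so miR-196a-5p reads do not tell the HoxB copy from the HoxC copy, whereas the 3p arms differ. miR-196a-2-3p, from the HoxC copy, was listed at 2.18 RPM in knockout replicate 3 and at 3.07 RPM in control replicate 3, and at 0 in the other 4 libraries. An entry for the 3p arm of the HoxB copy, or of miR-196b, was not among those analysed here.

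miR-10a-3p had 1.24, 3.95 and 1.63 RPM in the knockout libraries and 3.60, 5.92 and 3.69 RPM in the control libraries, on 2 to 8 reads each. The groups overlapped (limma adjusted p = 0.632). The 3p arm was 0.0345% to 0.0975% of miR-10a reads in the knockout libraries and 0.0829% to 0.146% in the control libraries, and the exact (Clopper-Pearson) 95% intervals overlapped, from 0.00417% to 0.124% in knockout replicate 1 and from 0.0629% to 0.287% in control replicate 2. miR-10b-3p was listed in control replicate 2 alone, at 1.48 RPM on 2 reads.

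miR-615 is the exception in which the 3p arm dominates. miR-615-5p had 4.35, 1.69 and 0 RPM in the knockout libraries and 1.44, 3.70 and 1.23 RPM in the control libraries, a mixed order with a log2 fold change of -0.28 (limma adjusted p = 0.849) that turned to 0.37 without knockout replicate 3 and to 0.06 without control replicate 2. The 3p arm made up 85.1% to 100.0% of miR-615 reads in knockout and 89.4% to 97.4% in control libraries. In the library with 0 reads of miR-615-5p, the exact 95% interval of its share reached 17.6%. The arm ratio of miR-615 was not compared between the groups.

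No hairpin of the set had both arms averaging 10 RPM or more, the level required for the test of arm ratios across 36 hairpins, in which limma called 8.33% with a higher 5p to 3p ratio. At a minimum of 3 RPM, with 83 hairpins and 0 called (limma, with unadjusted p under 0.05 for 7 higher and 3 lower ratios), miR-10a had a log2 difference of 0.63 (95% interval -0.35 to 1.60, limma adjusted p = 0.654).

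The entries whose profiles over the 6 libraries were most like each major arm were found by the root-mean-square difference of centred log2(RPM + 1), among 269 annotated entries averaging 10 RPM or more. For miR-10a-5p these were miR-148b-3p (0.08), miR-8119 (0.10) and miR-182-5p (0.10), against a median of 0.43 over all 269. miR-10b-5p was closest to miR-15b-5p (0.08), miR-195a-5p (0.12) and miR-374b-5p (0.13). The closest to miR-196a-5p were miR-191-5p (0.05), miR-146b-5p (0.05) and miR-16-5p (0.06), and to miR-196b-5p let-7d-3p (0.12), miR-708-5p (0.13) and miR-328-3p (0.13). miR-615-3p was closest to miR-351-3p (0.10), miR-149-5p (0.12) and miR-21a-3p (0.13). The Hox-locus entries were left out of the candidates, so likeness between paralogs was not measured here. No major arm shared any of its 3 closest entries with another, the 2 miR-10 arms included.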

How the data were processed

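Small RNA libraries from 3 knockout and 3 control vesicle samples were compared, grouped by their labels. The authors deposited 1 table of RPM values. Each column sums to 1000000 over all entries. Fastp and edgeR are named, per the submitters' processing notes, with roles and versions not given in the sources used here, nor are the aligner, miRNA release and build. Every value is a whole multiple of 0.5 of its column's lowest non-zero value (tolerance 0.001 read), read here as 2 reads being the lowest listed count. Reads without molecular identifiers are not independent molecules, so intervals and limits cover counting error only.

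Entries with at least 1 RPM in at least 3 libraries (1114) were log2-transformed after adding 1 RPM and tested with limma 3.58.1 (R 4.3.3, variance trend, 2-sided), and p-values were adjusted over all of them by Benjamini-Hochberg. On this log2 scale the changes of low entries come out too small. The prior carried infinite weight, so each standard error rests on a spread pooled over entries. The limma tests were tried on simulated data with a common spread, no outlying library and no rescaling to a fixed total. That trial therefore does not cover these features of the libraries. Named entries are all members, the miR-99 and miR-100 entries, and for each major arm the 3 entries with the smallest root-mean-square difference. Members and lists were chosen with earlier results of these data known, the 5 fragment-like entries included. The chi-square per degree of freedom between libraries was at least 111, so no library repeats another. Alternatives were other pseudocounts, filters, scalings, priors, a replicate block and each library left out.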

Additional observations from a re-analysis of the deposited data

How the results depend on the processing

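None of the 5 major arms passed limma in 18 alternatives, except miR-615-3p when only entries averaging 10 RPM or more were tested (-1.03, adjusted p = 0.0452), where 20% of 355 entries were called lower. Across the 18, miR-10b-5p, miR-196a-5p and miR-615-3p kept negative values. The other filters, the robust prior, the fit with no trend and the replicate block cannot change a fold change, so their signs were fixed in advance. miR-10a-5p turned positive with scaling to annotated entries (0.12), to annotated entries other than fragment-like ones (0.31), with median centring (0.025) and with quantile normalization (0.019). With scaling to annotated entries other than fragment-like ones and without knockout replicate 3, a combination added after seeing the data, miR-10a-5p had 0.23, miR-196b-5p 0.13 and miR-615-5p 0.59. With a library left out, values ranged from -0.22 to -0.11 for miR-10a-5p, -0.62 to -0.45 for miR-10b-5p, -0.66 to -0.35 for miR-196a-5p, -0.80 to -0.20 for miR-196b-5p, -1.23 to -0.64 for miR-615-3p and -0.84 to 0.37 for miR-615-5p. The log2 difference of miR-196b-5p over miR-196a-5p ranged from -0.22 to 0.16 (0.03 without control replicate 3) and that of miR-10b-5p over miR-10a-5p from -0.50 to -0.28. The summed ratio of 0.868 ranged from 0.826 to 0.904, and was 1.05 and 1.2 with the annotated scalings and 0.686 without miR-10a-5p.

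Over all entries, limma called 24 higher and 30 lower. The lower count was 15 with a pseudocount of 0.5 RPM, 15 with no filter, 71 of 355 among entries averaging 10 RPM or more, 5 and 2 with the annotated scalings (2 also without knockout replicate 3), 8 with median centring, 16 with quantile normalization and 17 with a robust prior. The higher count was 38 with scaling to annotated entries other than fragment-like ones. With no trend, limma called 0 higher and 0 lower (130 entries with unadjusted p under 0.05). With a library left out, the higher count ranged from 0 to 26 and the lower from 0 to 18; both were 0 without control replicate 3 (137 unadjusted), and 6 and 0 without control replicate 2 (190 unadjusted). For arm ratios, 3 hairpins were called higher and 0 lower, against 0 higher at a minimum of 3 RPM, and 0 to 3 higher and 0 to 1 lower with a library left out. The cause of these shifts was not tested.

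Same-numbered libraries did not deviate together from their group means over the tested entries (correlations of 0.005, -0.02 and 0.01). Many of these entries are low and noisy, so this cannot tell whether the numbers mark a shared culture or batch. With the replicate block, limma called 11 lower entries and 0 hairpins. In this balanced design the block cannot change the fold changes, only their errors. With the block the limma adjusted p was 0.415 for miR-10b-5p and 0.157 for miR-615-3p. The planned count test (edgeR) was not run, since no entry has 1 read and the recovered reads are not complete counts. Depth limits the minor arms, at 0 to 8 reads a library.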
